A study of Mus musculus with 4 samples.

Results

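The subject is the change of the ischemia response between 6 h and 24 h after stroke surgery, in brain RNA of male C57BL/6J mice aged 8 to 12 weeks. Mice had either permanent middle cerebral artery occlusion (PMCAO), in which a nylon filament advanced from the right common carotid artery blocks the artery that feeds much of one hemisphere, or a sham operation that exposed the carotid arteries without the filament. Both arms received saline into a cerebral ventricle, so the groups were sham at 6 h, PMCAO at 6 h, sham at 24 h and PMCAO at 24 h, with 3 mice in each. The sample labels call the tissue brain, and the series' design text says that the hemisphere opposite the occluded artery went onto the arrays. All 4 arrays of the series entered, 2 at each time, and each array carried PMCAO RNA in one dye and sham RNA in the other, with the dyes exchanged between sample 1 and sample 2 of a time. The labels do not say whether samples 1 and 2 were separate RNA or how the 3 mice were combined, and the p-values given here therefore reflect array-to-array spread alone, which may be technical. The 2 arrays of a time differ in dye orientation and the main fit has no dye term, so that spread also holds any dye effect of a gene.

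For each gene the log2 ratio of PMCAO over sham was averaged over the 2 arrays of a time, and the ratio at 6 h was subtracted from the ratio at 24 h. This number is called the difference below: 0 means that ischemia raised or lowered the gene by the same fold at both times, and 1 means that the fold over sham at 24 h was 2 times the fold at 6 h. The difference itself was tested, with limma's moderated test and Benjamini-Hochberg adjustment over all genes, so a gene counts because its response changed and not because it passed a test at one time alone. Of 19130 genes tested, 304 had a difference with an adjusted p under 0.05. Values after ± are standard errors (SE) with n = 2 arrays at each time.

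A blocked cerebral artery starves its territory of oxygen and glucose, and neurons respond first with immediate early genes, which encode transcription factors and are switched on by electrical and calcium signals without new protein synthesis. Cytokines and chemokines follow, astrocytes and microglia change their gene expression, and over the first day neutrophils and then monocytes enter from the blood. Surgery and anesthesia also raise stress hormones, so genes under glucocorticoid control can move in sham mice too.

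Most genes past the test changed upward. The response at 24 h exceeded that at 6 h in 247 genes (1.29% of those tested) and lay below it in 57 genes (0.298%), together 1.59%. At an unadjusted limma p under 0.05 the difference was above 0 in 1467 of the 19130 and below 0 in 1246. These shares are the background for the list counts below. Among the 304, 239 were increases that grew, 30 were decreases that were larger at 24 h (here growing decreases, although most were not decreases at 6 h), 5 were increases that faded and 30 reversed, meaning that the mean ratios had opposite signs, both arrays of each time lay on one side of 0 and the unadjusted p was under 0.05 at both times. No decrease faded by the adjusted limma test, whereas 66 genes did so at an unadjusted p under 0.05. The smallest difference that passed was 0.76 in size, and the 2 arrays of 24 h lay apart from the 2 arrays of 6 h in all 304 genes. Over all genes tested, 4270 had both 24 h arrays above both 6 h arrays and 3935 had both below, so separation of the arrays alone selects many more genes than the test. At the threshold, Angptl4 (difference 1.35), Ifi202b (0.80) and Atxn1 (-0.77) were just inside, each with an adjusted p of 0.0499, and Tram2 (0.79), AK080997 (-0.81, adjusted p = 0.0501) and Cryba2 (1.11, 0.0502) were just outside.

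**Figure D1:**
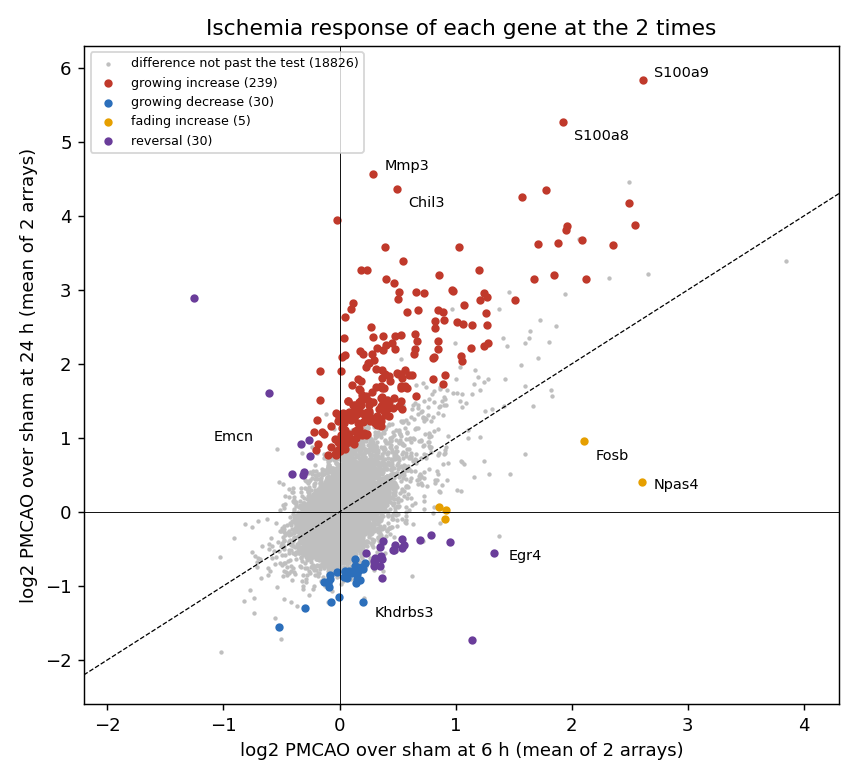
Each point is 1 gene, with its mean log2 ratio of PMCAO over sham at 6 h on the horizontal axis and at 24 h on the vertical axis (2 arrays a time); the dashed line marks an equal response at both times. The 239 growing increases stand above the line, the 5 fading increases to the right of it, and the 30 reversals in the quadrants of opposite sign.

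Calls at a single time gave another picture. At 6 h alone 163 genes passed the adjusted test (0.852% of those tested; 156 higher and 7 lower in PMCAO), and at 24 h alone 2363 did (12.4%; 1499 higher and 864 lower). Of the 2216 genes called at 24 h only, 250 passed the test of the difference, and of the 16 called at 6 h only, 5 did. For the other genes of those sets a changed response was not shown, although 1689 of the 2216 had a difference with an unadjusted p under 0.05. Among the 147 genes called at both times, 47 had a difference past the test: 43 growing increases, 1 fading increase and 3 reversals.

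The arrays were of similar quality, with 66.3% to 73.7% of probes well above background in PMCAO and 67.3% to 73.6% in sham, and their number, 2 at each time, limits the precision. The number of calls depended on how the arrays were put on one scale. With median centring in place of the intensity-dependent loess fit no difference passed (65 genes had an unadjusted p under 0.05), with log ratios scaled to equal spread between arrays 13 passed, and with the scanner software's own processed signals 62 did; without the first or the second array of 6 h 181 and 202 passed, and without the first or second of 24 h 2951 and 2085. The upward share of the calls was 81.3%, against 53.4% and 62.6% without the first or second array of 24 h, and over all genes tested 10134 differences were above 0 and 8996 below. All 304 genes kept their direction in each of the settings named here, except that 289 of 304 kept it when the ratios were scaled between arrays. For the fits without 1 array this was fixed in advance, because the arrays of the 2 times lay apart in all 304.

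The increases that grew had a median log2 ratio of 0.30 at 6 h and 1.58 at 24 h, and their median difference was 1.26. In 182 of the 239 the difference exceeded 1. At 6 h 138 of them had an unadjusted p under 0.05 and 43 an adjusted one, while all 239 passed the adjusted test at 24 h. In 42 of the 239 at least 1 of the 4 RNA groups was not well above background on either array, so their folds there are bounds and their fitted differences have no exact size and no rank. For such a gene "at least" compares PMCAO with the dimmest signal that the scanner rated well above background, or with the sham signal itself where that was higher. Such a bound takes no account of array-to-array spread. For Mmp3, Tgm1, Saa3 and Ccl11 the unadjusted limma p at 6 h was 0.0751, 0.0855, 0.0772 and 0.0771. A rise of these genes at 6 h was therefore not shown.

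Neutrophil and monocyte genes led this group. S100a8 and S100a9 encode the subunits of calprotectin, an abundant protein of neutrophil cytoplasm. The log2 ratio of S100a9 was 2.50 and 2.73 on the 6 h arrays and 5.91 and 5.76 on the 24 h arrays, a rise from 6.12-fold to 57.1-fold over sham (difference 3.22 ± 0.14, adjusted p = 0.00277). S100a8 went from 1.79 and 2.06 to 5.27 and 5.28 (difference 3.35 ± 0.14, adjusted p = 0.00277), that is from 3.79-fold to 38.7-fold. Both were already above sham on both 6 h arrays, and the 24 h arrays lay far above the 6 h arrays.

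Chil3, a chitinase-like protein of myeloid cells also called Ym1, was close to sham at 6 h and among the most raised genes at 24 h. Its ratios were 0.27 and 0.72 at 6 h, then 4.28 and 4.46 at 24 h (difference 3.87 ± 0.18, adjusted p = 0.00369), or 1.41-fold and 20.6-fold. Retnlg, a resistin-like protein of neutrophils, had ratios of 1.37 and 2.18 and then 4.24 and 4.46 (difference 2.58 ± 0.28, adjusted p = 0.0202). Its 6 h arrays differed by more than those of any other gene named in this paragraph, yet both stayed below the 24 h arrays. Slpi, an inhibitor of neutrophil elastase, went from 0.36 and 0.73 to 3.29 and 3.50 (difference 2.85 ± 0.17, adjusted p = 0.00489), although another probe of the gene had a difference of 0.21. The lectin receptor Clec4d, found on myeloid cells, went from 0.78 and 1.28 to 3.48 and 3.68 (difference 2.55 ± 0.20, adjusted p = 0.0114).

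Of 21 neutrophil and monocyte markers tested (of 25 listed), 15 rose and none fell, against 1.29% and 0.298% of all genes tested. The list's median difference was 1.43, against 0.01 over all genes tested. Among the others that rose were Mmp8, Mmp9, Cxcr2, Fpr1, Fpr2, Il1r2, Clec4e and Trem1. The summed signal of the 21 was 14781 to 15705 in PMCAO at the earlier time and 73459 to 84673 in PMCAO at 24 h. In sham it was 4172 to 4858 at 6 h and 3344 to 3346 at 24 h. S100a9, with a log2 level in PMCAO of 13.36 at 6 h and 15.89 at 24 h, dominates these sums. Taken singly, 21 of the 21 rose in PMCAO and the sham change was the larger in 0. The median change was 1.30 in PMCAO and -0.18 in sham, so the rise lay in the PMCAO channel. Mmp8, Cxcr2, Ngp, Fpr2 and Trem1 were among those not well above background in sham at either time. In bulk tissue more cells of a type and more RNA per cell cannot be told apart. The summed signal of 4 red blood cell markers was 74108 to 79694 in PMCAO and 54044 to 55897 in sham at 6 h, and 87076 to 95584 and 66021 to 69381 at 24 h; their part in the result was not tested. None of the 4 passed the limma test, adjusted or not, and neither did any of 6 lymphocyte markers, with a summed signal of 839 to 931 over the 4 groups.

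**Figure D2:**
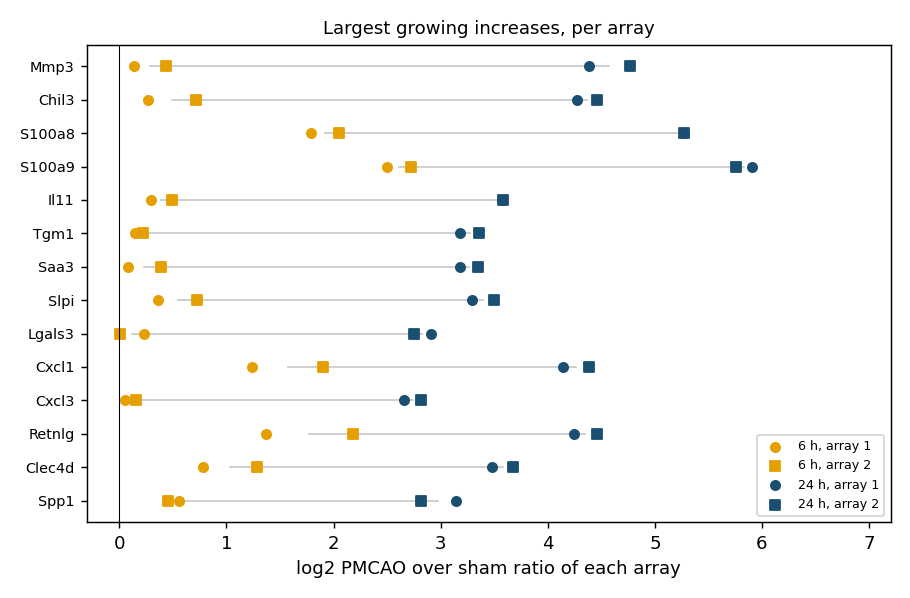
Log2 ratios of PMCAO over sham on each of the 4 arrays for 14 increases that grew; points of one colour are the 2 arrays of one time, joined at their means. The arrays of 24 h lie above those of 6 h for each gene, with S100a9 the highest at 5.91 and 5.76; Mmp3, Tgm1, Saa3 and Cxcl3 were not well above background in at least 1 group, so their distances are not exact.

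Chemokines draw leukocytes out of the blood. Of 21 tested (of 25 listed) 11 rose and none fell, against 1.29% and 0.298% of all genes tested, while 4 differences were below 0. The median difference was 1.69, with median ratios of 0.48 at 6 h and 2.13 at 24 h. Cxcl1, a ligand of the neutrophil receptor Cxcr2, was at 1.24 and 1.90 at 6 h, then 4.14 and 4.38 at 24 h (difference 2.69 ± 0.24, adjusted p = 0.0137), from 2.97-fold to 19.2-fold. Its relative Cxcl3 was not above background in either group at 6 h and was at least 6.07-fold above sham at 24 h; it entered the test only through PMCAO at 24 h, so its difference has no measured size. Ccl2, the main chemokine for monocytes, was already raised at 6 h, with ratios of 2.32 and 2.67 and then 4.41 and 3.95 (difference 1.69 ± 0.21, adjusted p = 0.0291). Ccl11, which attracts eosinophils, stood at 0.17 and 0.23 at 6 h and then 2.03 and 2.24 (difference 1.94 ± 0.13, adjusted p = 0.00727). Its sham signal at 6 h was not well above background, and no rise at that time was shown. At 24 h its sham signal was well above background on 1 of 2 arrays. The remaining chemokines that rose were Ccl3, Ccl5, Ccl6, Ccl7, Ccl9, Ccl12 and Cxcl10. The summed signal of the 21, which the brightest members dominate, was 102997 to 109852 in PMCAO and 109379 to 115257 in sham at 6 h, and 88904 to 109965 and 121158 to 128225 at 24 h; the sum overlapped that of sham at 6 h and lay below it at 24 h.

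Of 16 cytokines tested, 6 rose and none fell (median difference 0.64), against 1.29% and 0.298% of all genes tested. Il11, a cytokine of the interleukin 6 family, had ratios of 0.29 and 0.49 at 6 h, then 3.57 and 3.58 at 24 h (difference 3.19 ± 0.13, adjusted p = 0.00277), from 1.31-fold to 11.9-fold. Il1b, the inflammatory cytokine interleukin 1 beta, had 0.42 and 0.60 and then 2.91 and 2.86 (difference 2.38 ± 0.12, adjusted p = 0.00465). For both genes the arrays of one time lay close together and far from those of the other time. Il6 was at least 1.38-fold above sham at 6 h and at least 8.38-fold at 24 h, since its sham signal was not well above background at either time. Its fitted difference (2.62 ± 0.15, adjusted p = 0.00487) therefore has no exact size. The interleukin 1 receptor antagonist Il1rn, Tnf and Csf3 also rose. Ccl2, Il6 and the promoters below were picked after their values were seen; Mmp3, Cxcl1, Cxcl3, Il11, Nts and the lists' leading genes come from the rule for named genes.

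The promoters of some of these genes carry letters bound by factors of the inflammatory response, and they are shown because their genes grew together. Promoters were the 250 bases before the RefSeq start on GRCm38.p6, and 12130 of the 19130 genes tested and 171 of the 239 growing increases had at least 1. A gene with several starts counted once, where any of its windows held the motif, so genes with more starts had more chances of a match. The AP-1 motif TGACTCA, searched on both strands as were all motifs, stood in 23 of the 171 (13.5%) and in 4.25% of all genes with a promoter. A kappa B form, GGAATTTCC, stood in 6 of the 171 (3.51%: Cxcl1, Cxcl3, Cxcl10, Acod1, Icam1 and Ier3) and in 0.404% of all. Cxcl10 alone held both. These shares were not tested, and the genes of a chemokine family share ancestry and so are not independent of each other. The sequences are written 5′ to 3′ on the strand of the gene, with the motif, or its reverse complement, in capitals. The window of Cxcl1 is chr5:90890995-90891244 (plus strand), that of Cxcl3 chr5:90785851-90786100 (plus strand) and that of Cxcl10 chr5:92348890-92349139 (minus strand). That of Mmp3 is chr9:7445572-7445821 (plus strand), and that of Il11, at the one of its 2 starts that holds a motif, chr7:4778142-4778391 (minus strand).

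Cxcl1: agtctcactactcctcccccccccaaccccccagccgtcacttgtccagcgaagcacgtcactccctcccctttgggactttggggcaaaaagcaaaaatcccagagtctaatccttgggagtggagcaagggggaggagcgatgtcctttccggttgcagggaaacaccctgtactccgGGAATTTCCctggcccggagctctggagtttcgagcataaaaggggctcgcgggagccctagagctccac
Cxcl3: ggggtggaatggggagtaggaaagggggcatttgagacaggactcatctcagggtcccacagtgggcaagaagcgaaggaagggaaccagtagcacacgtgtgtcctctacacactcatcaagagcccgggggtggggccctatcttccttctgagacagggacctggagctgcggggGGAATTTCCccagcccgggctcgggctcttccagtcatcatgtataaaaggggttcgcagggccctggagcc
Cxcl10: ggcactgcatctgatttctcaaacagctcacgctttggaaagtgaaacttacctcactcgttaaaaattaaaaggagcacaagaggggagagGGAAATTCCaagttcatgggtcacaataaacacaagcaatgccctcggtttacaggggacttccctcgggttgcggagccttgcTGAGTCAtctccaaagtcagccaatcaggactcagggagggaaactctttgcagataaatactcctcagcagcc
Mmp3: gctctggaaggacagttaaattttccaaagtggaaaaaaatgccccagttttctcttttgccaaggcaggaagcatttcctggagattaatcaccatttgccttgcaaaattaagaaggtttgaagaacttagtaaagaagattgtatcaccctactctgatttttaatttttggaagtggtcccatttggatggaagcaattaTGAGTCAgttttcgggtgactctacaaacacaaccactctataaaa
Il11: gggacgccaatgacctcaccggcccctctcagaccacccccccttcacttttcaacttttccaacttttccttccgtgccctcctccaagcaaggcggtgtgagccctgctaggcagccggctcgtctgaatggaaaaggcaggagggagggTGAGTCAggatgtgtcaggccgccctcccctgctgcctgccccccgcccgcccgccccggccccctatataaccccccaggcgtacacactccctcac

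The kappa B letters of Cxcl1 and Cxcl3 begin 70 and 72 bases before the start. In Cxcl10 the kappa B letters begin 158 bases and the AP-1 letters 74 bases before the start, and the AP-1 letters of Mmp3 and Il11 begin 46 and 98 bases before it. The other motifs had shares in growing increases and in all genes with a promoter as follows. GAAANNGAA, an interferon-response form, stood in 12.9% and 7.5%, and TTCCNGGAA, a STAT form, in 1.75% and 1.25%. GGACTTTCC, another kappa B form, stood in 0.585% and 0.462%, and the cyclic AMP response element TGACGTCA in 1.17% and 2.84%. The E-box CACGTG stood in 5.85% and 9.47%, the heat shock core GAANNTTC in 4.09% and 6.2%, and the CArG box in 1.17% and 1.43%. The letters of no motif contain those of another. A match is a description of letters and not a bound site.

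Mmp3 encodes stromelysin 1, a protease that digests matrix proteins, and its probe lies at chr9:7453874-7453933 in the coordinates of the array's design (mm7), which the other probe positions below share. Its ratios were 0.13 and 0.44 at 6 h, then 4.38 and 4.77 at 24 h (difference 4.29 ± 0.19, adjusted p = 0.00277), at least 1.22-fold and then 23.8-fold over sham. Sham Mmp3 was not well above background at 6 h and was so on 1 of 2 arrays at 24 h. Of 26 genes for matrix proteins and their proteases 5 rose and none fell (median difference 0.52), against 1.29% and 0.298% of all genes tested. Timp1, an inhibitor of these proteases, was at 1.61 and 1.82 and then 3.63 and 3.62 (difference 1.91 ± 0.13, adjusted p = 0.00727). Thbs1, the matrix protein thrombospondin 1, went from 0.29 and 0.46 to 2.30 and 2.45 (difference 2.00 ± 0.13, adjusted p = 0.00679), with a spread of 0.42 to 2.00 over its probes. Adamts9 rose as well.

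Most genes of reactive astrocytes rose. Of 25 tested, 17 passed upward and none downward, against 1.29% and 0.298% of all genes tested. The median difference was 1.06, with median ratios of 0.53 at 6 h and 1.81 at 24 h. The list overlaps others, as it holds Timp1, Cxcl10, Cd14 and Hspb1. Tgm1, a transglutaminase that crosslinks proteins, had ratios of 0.15 and 0.23 and then 3.18 and 3.36 (difference 3.08 ± 0.13, adjusted p = 0.00277), at least 1.14-fold at 6 h and 9.65-fold at 24 h. Gfap, the filament protein of astrocytes, had a difference of 0.93 and did not pass. The summed signal of the 25 was 49539 to 50480 in PMCAO at 6 h and 116364 to 119414 at 24 h, against 32390 to 33074 and 32850 to 36848 in sham. None of 17 general astrocyte markers passed in either direction (4 higher at an unadjusted limma p under 0.05); their median difference was 0.12 and turned to -0.15 with median centring.

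Genes of activated phagocytes rose in 12 of 23 cases and fell in none (median difference 0.96), against 1.29% and 0.298% of all genes tested. Lgals3, galectin 3, had ratios of 0.23 and 0.01 at 6 h, then 2.91 and 2.75 at 24 h (difference 2.71 ± 0.14, adjusted p = 0.00454), that is 1.09-fold and then 7.1-fold of sham. Spp1, osteopontin, went from 0.56 and 0.46 to 3.14 and 2.82 (difference 2.47 ± 0.15, adjusted p = 0.00571). Of 15 homeostatic microglia markers none rose and 2 fell, against 1.29% and 0.298% of all genes tested, and their median difference was -0.30. At an unadjusted limma p under 0.05, 8 were lower and 1 higher, against 1246 and 1467 of all 19130 genes. Their median level changed by -0.08 in PMCAO and by 0.14 in sham, and the sham change was the larger in 7 of 15. Slc2a5, the fructose transporter GLUT5, went from -0.19 and -0.41 to -1.19 and -1.41 (difference -1.0 ± 0.14, adjusted p = 0.044). Siglech, a sialic acid receptor, went from -0.03 and -0.15 to -0.96 and -1.07 (difference -0.92 ± 0.12, adjusted p = 0.0359). P2ry12, the purine receptor of resting microglia, had a difference of -1.22 that did not pass. All 15 were well above background in every group.

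Other groups held fewer changes. Saa3, an acute phase protein, rose from at least 1.18-fold to 9.61-fold over sham (ratios 0.08 and 0.39, then 3.18 and 3.35; difference 3.03 ± 0.15, adjusted p = 0.00451), and with it Hp and A2m of 12 complement and acute phase genes (median difference 0.61). Among 20 antioxidant and metallothionein genes, 3 rose and none fell (median difference 0.38): Hmox1, heme oxygenase 1, at 1.25 and 1.18 and then 2.90 and 2.83 (difference 1.65 ± 0.12, adjusted p = 0.00841), with Mt1 and with Osgin1, whose probes gave 0.16 to 1.34. Of 10 leukocyte adhesion genes 3 rose and none fell, among them Icam1, the endothelial ligand of leukocyte integrins, at 0.81 and 0.89 and then 2.27 and 2.13 (difference 1.36 ± 0.12, adjusted p = 0.014). Of 28 hypoxia and glycolysis genes only Adm, the vasodilator peptide adrenomedullin, and Slc16a3, a lactate exporter, rose, against 1.29% of all genes tested. The list's median difference of 0.11 turned to -0.12 with median centring and to -0.01 with scaled ratios. Adm was at 0.92 and 0.73 and then 2.81 and 2.17 (difference 1.67 ± 0.23, adjusted p = 0.0388).

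Interferon-response genes had small differences, above 0 in 30 of 31. Of 31 tested 2 passed, Ifitm3 and Rsad2, both higher, against 1.29% of all genes tested. An unadjusted limma p under 0.05 was reached by 24 higher members and no lower one, against 1467 and 1246 of all 19130 genes. The list's median ratio was 0.05 at 6 h and 0.54 at 24 h. Of 16 genes of NF-kB and cytokine feedback 2 rose, Bcl3 and Ier3, and the median difference of 0.64 turned to -0.01 when ratios were scaled between arrays. Of 13 antigen presentation genes none passed the limma test (5 higher at an unadjusted p under 0.05). The 22 cytosolic ribosomal protein genes gave no call, nor any member with an unadjusted p under 0.05 in limma, although all 22 differences were above 0 (median 0.23), which turned to -0.06 with median centring.

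**Figure D3:**
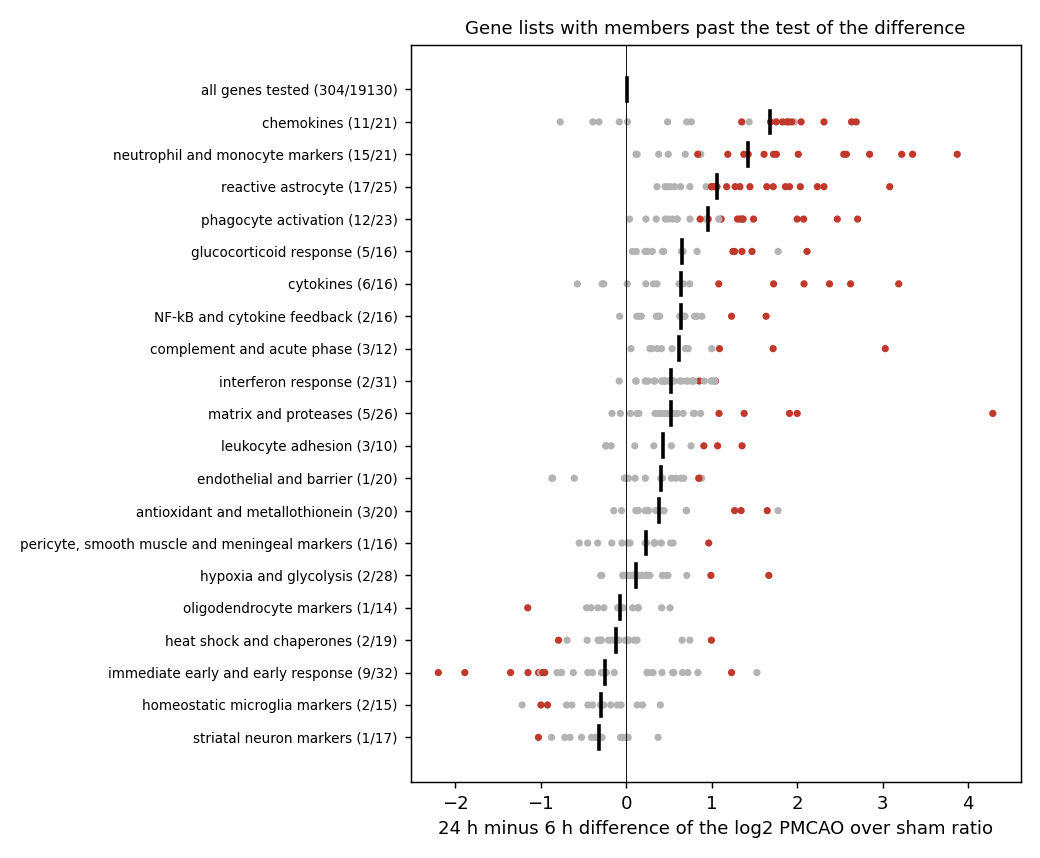
Differences (24 h minus 6 h, log2) of the tested members of each gene list with at least 1 member past the test; each point is 1 gene, red where the difference passed the adjusted test, and the black bar is the list's median. The labels give the members past the test over those tested; chemokines have the highest median (1.69) and striatal neuron markers the lowest (-0.31).

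A difference of ratios can come from PMCAO RNA, from sham RNA or from both, so the level of each RNA was also followed, as a log2 intensity after quantile normalization of the arrays' average intensities. In 226 of the 239 growing increases the change from 6 h to 24 h was larger in PMCAO than in sham. In the other 13 the sham change was the larger: Plin4, Ch25h, 1200016E24Rik, Sgk1, TC1533348, Mt1, Il12rb1, Lao1, Gimap6, Slc6a4, Tmem252, Galnt15 and Cabs1. The sham change was also the larger in 10 of 30 growing decreases, whose median sham change was 0.34, in 7 of 30 reversals and in none of 5 fading increases. Over all genes tested it was the larger in 7723 of 19130.

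Of those 13 genes, Plin4, Sgk1 and Mt1 are on the list of glucocorticoid-response genes. Whether a hormone played a part in their change was not tested. Plin4, a coat protein of lipid droplets, had ratios of 0.51 and 0.65 at 6 h, then 2.75 and 2.65 at 24 h (difference 2.12 ± 0.12, adjusted p = 0.00487). Its PMCAO level stood at 13.05 and 13.23 on the log2 scale, while its sham level fell from 12.47 to 10.53. Sgk1, a kinase induced by serum and glucocorticoids, had ratios of 0.18 and 0.17 and then 1.71 and 1.58 (difference 1.47 ± 0.12, adjusted p = 0.0122), with PMCAO at 14.84 and 14.74 and sham at 14.67 and 13.10; another probe of Sgk1 had a difference of -0.08. For both genes, then, the wider gap at 24 h was mostly a lower sham level. Ch25h, which makes 25-hydroxycholesterol and is not on that list, rose by 0.72 in PMCAO and fell by 1.34 in sham. Of 16 glucocorticoid-response genes 5 rose and none fell, against 1.29% and 0.298% of all genes tested. In 16 of 16 the sham level was lower at 24 h than at 6 h (median change -0.51, against 0.18 in PMCAO). Over all genes tested it was lower in 9164 of 19130 (median change 0.01). A lower sham level was not particular to this list, as 20 of 21 neutrophil and monocyte markers and 18 of 22 ribosomal protein genes had it (median changes -0.18 and -0.09). The list's median difference was 0.66 and turned to -0.08 when ratios were scaled between arrays.

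**Figure D4:**
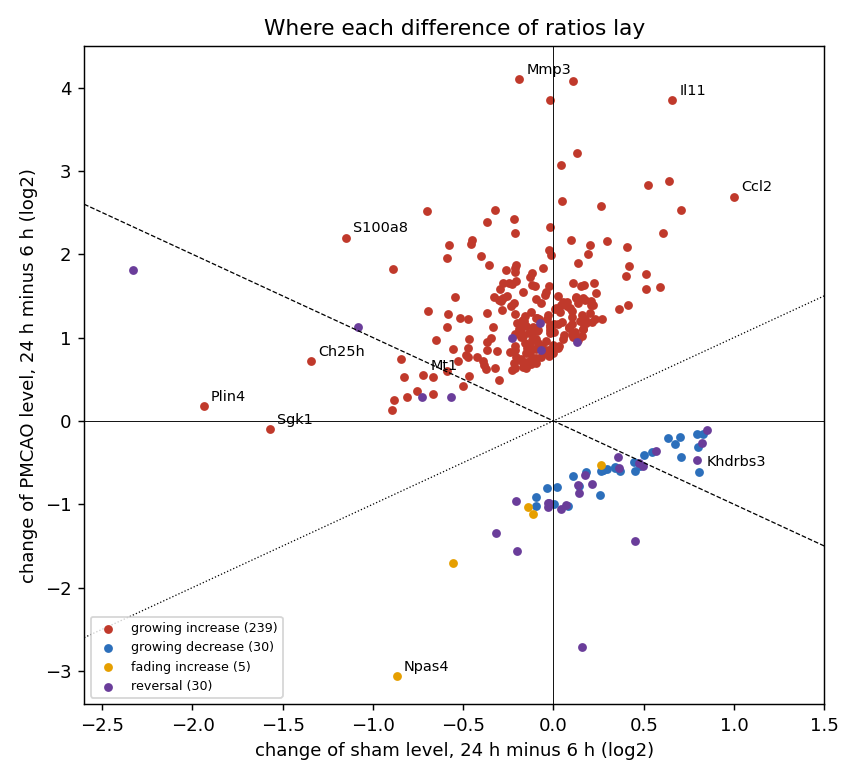
Change of the log2 level from 6 h to 24 h in sham RNA (horizontal axis) and in PMCAO RNA (vertical axis) for the 304 genes whose difference passed. Dashed and dotted lines mark changes of equal size; points above both or below both changed more in PMCAO than in sham, as Chil3 did (3.86 against -0.02); Plin4 lies to the left, at -1.94 in sham and 0.18 in PMCAO.

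The 30 growing decreases had a median ratio of 0.08 at 6 h and -0.85 at 24 h. Only 2 of them had an unadjusted p under 0.05 at 6 h, so in most the decrease was seen at 24 h and not at 6 h. Of the 30, 17 had names that are only clone or accession identifiers. Khdrbs3, an RNA-binding splicing regulator of brain (probe at chr15:69177456-69177515), had ratios of 0.14 and 0.26 at 6 h, then -0.97 and -1.46 at 24 h (difference -1.42 ± 0.19, adjusted p = 0.0359). Its 24 h arrays lay further apart than its 6 h arrays, and both were below them. Its level fell by 0.61 in PMCAO and rose by 0.81 in sham. Ugt8a, the enzyme that makes galactosylceramide for myelin, went from -0.11 and -0.04 to -1.23 and -1.21 (difference -1.15 ± 0.11, adjusted p = 0.0169), though its other probes reached 0.02. Tnfrsf25, a death receptor also called DR3, went from 0.16 and 0.19 to -0.91 and -0.92 (difference -1.09 ± 0.11, adjusted p = 0.0185), with 0.00 at its other probe. Trim54, a muscle ring-finger protein, went from 0.07 and 0.14 to -0.86 and -0.78 (difference -0.92 ± 0.12, adjusted p = 0.0312). These 4 genes shared ratios near 0 at 6 h on both arrays.

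Rxrg, a retinoid receptor rich in striatum, had ratios below 0 at both times. Its ratios were -0.62 and -0.42 at 6 h, then -1.68 and -1.42 at 24 h (difference -1.03 ± 0.15, adjusted p = 0.044), or 0.696-fold and 0.342-fold of sham, and the arrays of the times did not overlap. It was the 1 call among 17 striatal neuron markers, whose median difference was -0.31, while 0.298% of all genes tested passed downward. At an unadjusted limma p under 0.05, 7 were lower and none higher, against 1246 and 1467 of all 19130 genes. The summed signal of the 17 was 151262 to 161822 in PMCAO and 171413 to 172699 in sham at 6 h, and 120028 to 136290 and 196634 to 201006 at 24 h. Of 24 general neuron markers, all above background in every group, none passed the limma test and 3 were lower at an unadjusted p under 0.05 (median difference -0.15). None of 11 interneuron or 9 oligodendrocyte precursor markers passed limma's adjusted test (3 lower and 2 higher, respectively, by the unadjusted p), and of 14 oligodendrocyte markers Ugt8a alone did.

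Immediate early genes had more members that fell than any other list. Of 32 tested, 8 fell relative to 6 h and 1 rose (Ier3), against 0.298% and 1.29% of all genes; their median difference was -0.25. The list holds phosphatases and growth factors beside transcription factors, and 14 of 32 were lower at an unadjusted p under 0.05 and 8 higher. Their median level fell by 0.61 in PMCAO and by 0.16 in sham. Without the first or the second array of 6 h, most of the 5 fading increases and most of the 30 reversals did not keep their class. A class needs both the difference past the test and, for a reversal, the rule on each time.

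Npas4, a transcription factor that neurons switch on with calcium entry (probe at chr19:4879639-4879698), faded most. Its ratios were 2.45 and 2.76 at 6 h, then 0.00 and 0.81 at 24 h (difference -2.2 ± 0.28, adjusted p = 0.0342), from 6.07-fold to 1.32-fold over sham. The 24 h arrays disagreed on whether any increase was left, but both lay well below the 6 h arrays. Fosb, a partner of Jun in AP-1, faded in part: 1.95 and 2.26 at 6 h, then 0.88 and 1.03 at 24 h (difference -1.15 ± 0.15, adjusted p = 0.0359), from 4.3-fold to 1.94-fold. It was the 1 fading gene still called at 24 h.

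The other 3 fading increases were near the sham level at 24 h. Nts, the neuropeptide neurotensin, had ratios of 0.88 and 0.94 and then -0.06 and -0.12 (difference -1.0 ± 0.11, adjusted p = 0.024). Rem2, a small GTPase that restrains calcium channels, had 0.92 and 0.91 and then 0.12 and -0.08 (difference -0.89 ± 0.13, adjusted p = 0.043). Dnajb1, a cochaperone of the Hsp70 proteins, had 0.87 and 0.85 and then 0.08 and 0.06 (difference -0.79 ± 0.11, adjusted p = 0.0426), with -0.48 at another probe. For all 3 the 6 h arrays nearly coincided and the 24 h arrays lay around 0. In all 5 fading genes the change in PMCAO was larger than that in sham; for Npas4 it was -3.07 against -0.87. Among the 19 heat shock genes Dnajb1 fell and Hspb1 rose, and Hspb1's difference of 1.00 (-0.02 at its other probe) turned to -0.25 when ratios were scaled between arrays. Hspa1a, the inducible Hsp70, had mean ratios of 3.85 at 6 h and 3.39 at 24 h (difference -0.46, not past the test).

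The genes that reversed went from above sham to below it in 22 of 30 cases, with median ratios of 0.41 at 6 h and -0.54 at 24 h. Egr4, a zinc finger factor of the Egr family (probe at chr6:85540804-85540863), had ratios of 1.22 and 1.45 at 6 h, then -0.54 and -0.56 at 24 h (difference -1.89 ± 0.13, adjusted p = 0.00841), from 2.52-fold to 0.681-fold of sham. All members of its family reversed: Egr3 had 0.49 and 0.58 and then -0.55 and -0.43 (difference -1.03 ± 0.12, adjusted p = 0.0262), with -0.47 at another probe, and Egr1 and Egr2 had differences of -1.0 and -0.95. Bdnf, the growth factor that supports neuron survival and synapses, had 0.99 and 0.92 and then -0.33 and -0.47 (difference -1.35 ± 0.12, adjusted p = 0.0137), and its probes gave -1.54 to -1.35. Mest, an imprinted gene of the hydrolase fold, had 0.78 and 0.79 and then -0.21 and -0.42 (difference -1.10 ± 0.13, adjusted p = 0.0262).

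Genes picked after their values were seen included feedback regulators of the same signals. Dusp6, the phosphatase that switches off the kinase ERK, had ratios of 0.35 and 0.56 and then -0.62 and -0.42 (difference -0.98 ± 0.14, adjusted p = 0.044). Pcsk1, which cleaves prohormones in neurons, had 0.53 and 0.58 and then -0.42 and -0.49 (difference -1.01 ± 0.11, adjusted p = 0.0238). The largest difference among these 22 belonged to a clone, C330006P03Rik, at 1.18 and 1.10 and then -1.67 and -1.79 (difference -2.87 ± 0.12, adjusted p = 0.00277). Of the 30 reversals 12 carried only clone or accession names.

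Promoters of 1 fading and 1 reversing gene are shown as examples, since each held a motif known from activity-induced genes. Among the 5 fading genes the AP-1 letters stood in Nts alone, against 4.25% of all genes with a promoter. Among the 15 reversing genes with a promoter the cyclic AMP response element stood in Pcsk1 alone, against 2.84%. The window of Nts is chr10:102490419-102490668 (minus strand), with its AP-1 letters from 207 bases before the start, and that of Pcsk1 is chr13:75089607-75089856 (plus strand), with its element from 78 bases before the start.

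Nts: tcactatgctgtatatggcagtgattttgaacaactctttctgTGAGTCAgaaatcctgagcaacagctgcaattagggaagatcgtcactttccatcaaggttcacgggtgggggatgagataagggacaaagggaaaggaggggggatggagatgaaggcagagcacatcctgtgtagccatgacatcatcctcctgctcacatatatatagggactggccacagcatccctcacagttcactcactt
Pcsk1: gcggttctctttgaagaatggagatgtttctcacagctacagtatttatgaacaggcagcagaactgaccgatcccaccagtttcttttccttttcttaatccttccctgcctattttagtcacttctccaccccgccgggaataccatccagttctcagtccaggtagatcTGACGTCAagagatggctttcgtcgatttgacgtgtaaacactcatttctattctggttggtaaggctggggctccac

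None of the other motifs stood in a fading gene. Among the 15 reversing genes the interferon-response form GAAANNGAA was the most frequent, in 4 (Bdnf, Egr2, Egr4 and Pcsk1), or 26.7%. It stood in 7.5% of all genes with a promoter, and the shares were not tested. Bdnf and Egr2 have several windows each, and a match in any of them counted. The heat shock core GAANNTTC stood in Bdnf and Hspb3, the E-box and the CArG box in Egr2, AP-1 in Fmnl3 and the kappa B form GGAATTTCC in Dusp6. No match says only that these letters are not in the 250 bases searched.

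In 8 genes the response went from below sham to above it, with median ratios of -0.32 at 6 h and 0.84 at 24 h. Emcn, a sialomucin of venous and capillary endothelium (probe at chr3:137226821-137226880), had ratios of -0.29 and -0.37 at 6 h, then 0.98 and 0.85 at 24 h (difference 1.24 ± 0.12, adjusted p = 0.0159), from 0.795-fold to 1.88-fold of sham. Tmem245, a transmembrane protein, had -0.14 and -0.38 and then 1.00 and 0.93 (difference 1.23 ± 0.13, adjusted p = 0.021), while its other probes went down to -0.34. Ly6c1, a surface protein of brain endothelium, had -0.29 and -0.32 and then 0.58 and 0.51 (difference 0.85 ± 0.11, adjusted p = 0.0375); its level rose by 0.28 in PMCAO and fell by 0.57 in sham. The arrays of each time lay on opposite sides of 0 for all 3. Ly6c1 was the 1 call among 20 endothelial and barrier genes, whose median difference was 0.41, while 1.29% of all genes tested passed upward. An unadjusted limma p under 0.05 was reached by 10 higher and 3 lower members, against 1467 and 1246 of all 19130 genes. Adcy4, Fmnl3 and Thbs4 also turned upward. The largest upward reversal belonged to a probe with no gene name, A_52_P893105, at -0.60 and -1.91 and then 2.84 and 2.94 (difference 4.14 ± 0.41, adjusted p = 0.0169); its level rose by 1.82 in PMCAO and fell by 2.33 in sham, and its 6 h arrays lay far apart. Of 16 pericyte, smooth muscle and meningeal markers Dcn alone rose (1.29% of all genes tested did), with -0.08 to 0.97 over its probes.

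**Figure D5:**
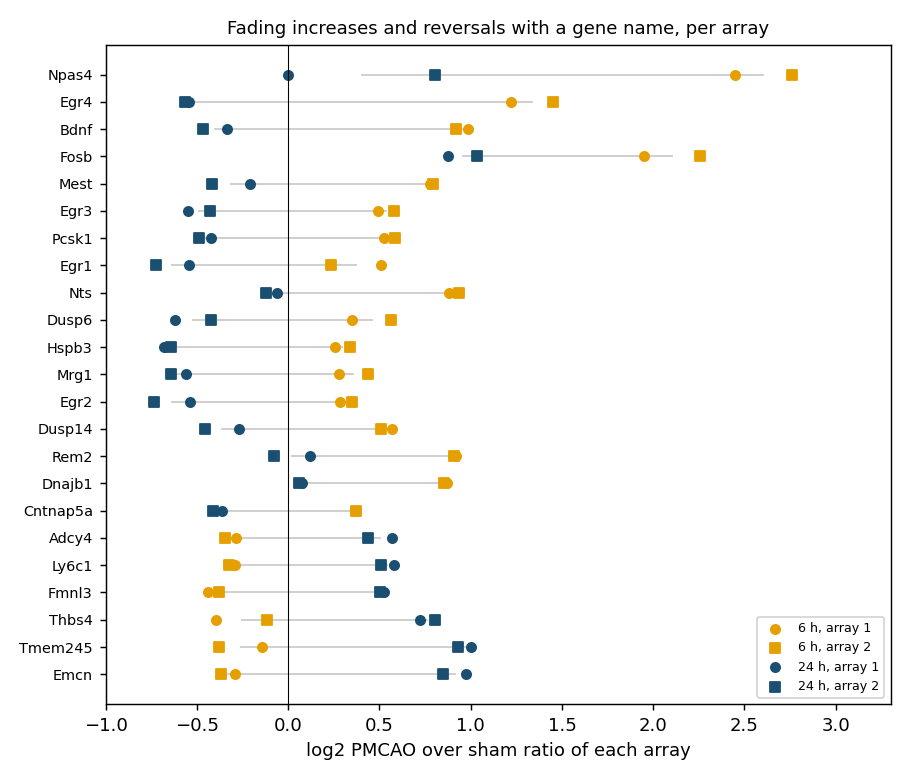
Log2 ratios of PMCAO over sham on each of the 4 arrays for the 5 fading increases and the 18 reversals that carry a gene name; points of one colour are the 2 arrays of one time, joined at their means, and the vertical line at 0 is the sham level. Npas4 and Fosb move leftward but stay at or above 0, while Egr4 and Bdnf cross to below it and Emcn crosses to above it.

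Some genes raised at 6 h stood at a like ratio at 24 h. Of the 147 genes called at both times, 39 had a difference under 0.3 in size. Fos, the founding immediate early gene, had ratios of 2.00 and 1.66 at 6 h, then 1.95 and 1.18 at 24 h, a difference of -0.26 with a 95% interval of -0.95 to 0.43, and its level changed by -0.98 in PMCAO and by -0.72 in sham. Ptgs2, the inducible cyclooxygenase, had 1.65 and 1.68 and then 1.71 and 1.15, a difference of -0.24 (-0.74 to 0.26), with changes of -0.86 and -0.63. For these genes PMCAO and sham moved down together, and the interval leaves room for a change of either sign. Pmaip1, the p53 target Noxa, had a difference of 0.01 (-0.30 to 0.32), and Cdt1, a DNA replication licensing factor, 0.07 (-0.25 to 0.40). Drd4, a dopamine receptor, had -0.18 (-0.57 to 0.22) and Crct1, a cornified envelope gene, 0.10 (-0.54 to 0.74). The intervals, each from 2 arrays a time, do not show that the responses were equal.

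Several stress and maintenance groups gave no call in the limma fit. Of 20 p53 and apoptosis genes 7 were higher at an unadjusted p under 0.05, and their median difference of 0.29 turned to -0.04 with scaled ratios; the nearest, Casp8, had 0.71 (adjusted p = 0.0578). Of 21 genes of endoplasmic reticulum and integrated stress 2 were higher and 1 lower at that level, led by Trib3 (0.85, adjusted p = 0.0551) and Sdf2l1 (-0.68, 0.0605). Of 23 cholesterol synthesis genes 4 were higher and 1 lower, with a median of 0.18 that turned to -0.05 with median centring or scaled ratios. Of 22 cell cycle genes 1 was higher, of 18 circadian clock genes 1 was lower, and of 11 choroid plexus and ependyma markers 1 was lower, all at an unadjusted p under 0.05. Over all 19130 genes tested 1467 were higher and 1246 lower at that level.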

How the data were processed

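Brain RNA was labelled with a linear amplification kit and hybridised to 4 two-colour whole-genome oligonucleotide arrays, per the labels' protocols; all sat on 1 slide in 1 scan. Per the file headers, the authors' scanner files come from version 9.5.3.1 of Agilent's Feature Extraction software and hold intensity values of each spot (mean and background median of each dye), the software's processed intensities and its flags. The deposited series table holds a signed score: its size equals the ratio of processed Cy5 over Cy3, rounded, for 100% of spots, and its sign is negative throughout on the sample 1 arrays.

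Intensities were corrected with normexp (offset 50), loess-normalized within each array with control spots at weight 0, turned to PMCAO over sham and stripped of outlier spots. Repeated spots of 1 probe were averaged, and each gene was represented by its brightest probe. Probes were named by accession (23075 of 41174), symbol (6589), older symbol (3060) or the name in the files (8450), with RefSeq tables. Genes entered the test (19130 of 27670) where some RNA group, of 4, was well above background on both its arrays; 10 of them lacked 1 array. The test was limma 3.58.1 in R 4.3.3, 1 coefficient a time, with the 24 h minus 6 h contrast (2 residual degrees of freedom, 3.53 from the prior), 2-sided, adjusted over all genes tested. The procedure was tested on simulated data. Levels of each RNA came from Aquantile-normalized channels.

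Genes were named, among those with gene symbols, by size of the difference: 10 growing increases, 6 growing decreases, 8 fading increases, 4 fading decreases and 6 reversals (all where fewer) measured in every group, the 4 largest with bounds, the 6 most raised steady genes and 2 of each of 34 lists; other genes were picked once their values were known. The members and lists were chosen with earlier results of these data known. Alternatives, given in the closing section, changed the background correction, normalization, probe filter, probe choice, spread model, arrays left out and the replicate block. Some genes of the lists are counted in them but not reported here by name.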

Additional observations from a re-analysis of the deposited data

Results flagged for a closer look

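The response at 24 h differed from that at 6 h by the test of the difference itself in 247 genes upward and 57 downward, and 30 of these met the rule for a reversal (opposite signs, both arrays of each time on one side of 0, unadjusted p under 0.05 at both times). The named reversals, each with its 24 h minus 6 h difference of log2 ratios, were Egr4 (-1.89), Bdnf (-1.35), Emcn (1.24), Tmem245 (1.23), Mest (-1.10) and Egr3 (-1.03). Other probes of Tmem245 and Egr3 gave -0.34 and -0.47. With 2 arrays at each time no array could be tested as an outlier.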

How the results depend on the processing

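In the main analysis 247 differences were higher and 57 lower (239 growing increases, 30 growing decreases, 5 fading increases, 0 fading decreases, 30 reversals, 255 called at 1 time only). In that order, median centring in place of loess gave 0 and 0 (0, 0, 0, 0, 0, 0) and moved the median of all genes to -0.10. Ratios scaled between arrays gave 13 and 0 (11, 0, 0, 0, 2, 13), so 100% of calls were higher against 81.3%, and Hspb1 turned to -0.25. The software's processed signals gave 54 and 8 (46, 1, 0, 0, 15, 39) and the values deposited with the series 51 and 7 (43, 1, 0, 0, 14, 33). Requiring all 8 channels well above background gave 148 and 30 (142, 14, 3, 0, 19, 137). No background correction gave 36 lower and 15 growing decreases, and the mean over probes 46 growing decreases. Leaving out 1 array gave 167 to 1577 higher, 14 to 1374 lower, 160 to 1510 growing increases, 8 to 1129 growing decreases, 2 to 99 fading increases, 0 to 26 fading decreases, 8 to 196 reversals and 142 to 2474 called at 1 time only; the high counts came without an array of 24 h. Reversals with opposite signs and no p at either time numbered 63. The cause of these shifts was not tested.

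The sample number equals the dye orientation, and only 2 pairs share numbers, so the labels do not pair the arrays; deviations of sample 1 from the time means correlated at 0.718 between times. A replicate block gave 1688 and 1531 (1498, 1182, 133, 75, 331, 2584), with 52.4% of calls higher, and left 1 residual degree of freedom, as did each fit without an array.

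Of the 304 genes, all kept their direction under each alternative in which they were tested, except 15 with scaled ratios. With 1 array left out this was fixed in advance, because the arrays of the 2 times lay apart in all 304. The probe filters and the spread model leave a gene's difference unchanged, so they could not turn it either. Signal over background limits the folds of 42 growing increases to bounds.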
